A study of Homo sapiens with 10 samples.

Results

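Motile cilium genes were followed in spheres of ReNcell VM cells (neural progenitors of human origin, immortalised and grown as a line) after exposure to phthalate esters during differentiation. The genes were chosen by name. They are all genes of the count table whose symbol is CFAP, DNAH, DNAI, DNAAF, DRC, RSPH or TEKT followed by a number, together with FOXJ1, SPAG6 and HYDIN, which gave 81 of 46427 genes. Expression was measured by RNA sequencing of 10 libraries in 5 groups of 2. The groups were DEP (diethyl phthalate), DProP, DPP and Mix, each labelled 100 µM, and a vehicle control with 0.1% DMSO. DProP usually abbreviates di-n-propyl phthalate. DPP is ambiguous among phthalates, so its chain is left unnamed here, and which compounds Mix combines was not stated in the labels. All groups shared the same line, the same laminin-coated plates and 6 days in differentiation medium. A library held the RNA of 6 pooled neurospheres. Whether paired libraries derive from separate cultures is not stated, so the p values reflect only how far these libraries spread, which may be technical. The study asks whether short-chain phthalates disturb neural development.

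A motile cilium is built on the axoneme, a ring of doublet microtubules around a central pair. Outer and inner dynein arms slide the doublets, radial spokes and the central apparatus regulate that sliding, and the nexin-dynein regulatory complex limits it. Dynein arms are assembled in the cytoplasm by dedicated assembly factors, while tektins and other microtubule inner proteins line the inside of the doublets. FOXJ1 is the transcription factor that turns on these genes, together with RFX factors that bind the X-box, a motif of ciliary promoters. In the brain, motile cilia are borne by ependymal cells, which line the ventricles and derive from radial glia, and by the choroid plexus. Neural progenitors carry a single primary cilium, which lacks most of this machinery.

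Totals ran from 57222381 to 72973100 counts per library. Levels are given as CPM, counts scaled to a common library size with TMM factors, which correct for differences in composition. The vehicle libraries stood apart in composition: the scaling factors were 1.00 to 1.04 in the treated libraries, against 0.917 and 0.915 in vehicle, and 22905 to 23646 genes had a count in treated libraries, against 21603 and 21500 in vehicle. Scaling by library size alone moved the median log2 fold change of all 19465 tested genes to 0.16, 0.19, 0.18 and 0.16 in DEP, DProP, DPP and Mix against vehicle, from 0.01, 0.02, 0.02 and 0.02 with TMM. Fold changes against vehicle are therefore relative to the TMM scale, and a batch that coincided with vehicle cannot be told apart from treatment. Comparisons between treatments rest on the levels of the treated libraries.

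Most of the genes were expressed. Of the 81, 67 averaged at least 1 CPM and 76 entered the test. The 5 that did not were the inner-arm heavy chain gene DNAH3, the assembly factor gene DNAAF6, CFAP58, CFAP97D1 and CFAP97D2, the last without any count. Per kilobase of transcript, the highest mean levels over the 10 libraries belonged to CFAP97 at 30.5 CPM per kb and FOXJ1 at 27.7 CPM per kb. They were followed by the assembly factor genes CFAP298 at 26.9 and DNAAF5 at 22.9 CPM per kb, the doublet protein gene CFAP20 at 21.1 CPM per kb and the dynein intermediate chain gene DNAI4 at 16.9 CPM per kb. These means pool the groups: FOXJ1 was above CFAP97 in DEP, at 30.9 against 28.3 CPM per kb, and in vehicle, at 41.8 against 31.6 CPM per kb. The tissue label was checked with NES and SOX2 of progenitors, TUBB3 of neurons and GFAP of astrocytes, all of which were abundant. NES was at 1750.2 and 1624 CPM in DEP, 1521 and 1591 in DProP, 1771 and 1746 in DPP and 1540.5 and 1532 in Mix, against 2333 and 2382 CPM in vehicle. GFAP was at 2777 and 2589.9 CPM in DEP, 2417 and 2379 in DProP, 2755 and 2314 in DPP and 2459 and 2394 in Mix, against 4769 and 4549.5 CPM in vehicle. Both lay lower in every treated library than in vehicle. Of the listed genes of multiciliated cells, 23 of 30 markers and 21 of 26 regulators of multiciliation entered the test. No count in any library was found for 4 of the 30 markers and 3 of the 26 regulators. MCIDAS, the gene of a factor that starts multiciliation, DEUP1, which serves the amplification of centrioles, and the multiciliated cell markers SNTN, FAM216B, C1orf87 and C11orf97 had no count in any library, and CCNO, the gene of a cyclin of multiciliated cells, was at 0 in 9 of 10 libraries. Which exons the kit captured was not stated, so no expression and RNA that was not captured cannot be told apart for these genes.

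Compared with vehicle, falls outnumbered rises among the motile cilium genes in all 4 treatments on the TMM scale. In DEP the falls lay near the share of all genes, and with library size alone rises outnumbered them there. After DEP 13 of the 76 tested genes fell and 5 rose, where 13.5% of all tested genes fell and 10.1% rose. After DProP 35 fell and 2 rose, against 17.5% and 14.7% of all genes. After DPP 42 fell and none rose, against 19.5% and 16.7% of all genes. After Mix 27 fell and 1 rose, against 10.7% and 9.71% of all genes. The DEP count of falls, 17.1% of the tested members, thus lay near that of all genes, whereas those of DProP, DPP and Mix were 46.1%, 55.3% and 35.5%. The median log2 fold change of the 76 genes was -0.12 in DEP, -0.35 in DProP, -0.50 in DPP and -0.35 in Mix, beside 0.01, 0.02, 0.02 and 0.02 over all genes. In 35, 50, 52 and 51 of the 76 genes both treated libraries lay below both vehicle libraries in DEP, DProP, DPP and Mix, beside 31.5%, 32.4%, 32.9% and 28.7% of all genes. Counts by role and by list below are to be read beside the shares of all genes that fell or rose. In a role of few genes, 1 or 2 calls are not read as a result about that role.

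The counts depended on the scale and on single libraries. With library size alone 9 fell and 13 rose in DEP, 24 fell and 7 rose in DProP, 32 fell and 5 rose in DPP, and 17 fell and 4 rose in Mix, and the DEP median became 0.04. At that scaling 6.47% of all genes fell and 24.6% rose in DEP, 8.73% and 30.1% in DProP, 11.3% and 29.9% in DPP, and 5.24% and 23.7% in Mix. Later counts with library size alone are to be read beside these shares. The 18 calls of DEP became 6 without DEP 1, 7 without DEP 2 and 11 without either vehicle library. The 37 calls of DProP became 21 without DProP 2, and the 28 of Mix became 12 without Mix 1 and 17 without vehicle 2. Of the called members 4 of 18 in DEP, 18 of 37 in DProP, 27 of 42 in DPP and 10 of 28 in Mix passed the threshold under every alternative setting and without any 1 library. Leaving out 1 library also leaves fewer residual degrees of freedom for all genes. The all-gene shares of those fits are not given here, so whether the drops are particular to the members was not tested. All 4 comparisons share the 2 vehicle libraries, so they are given side by side and not as support for one another.

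Averaged over the 67 genes above 1 CPM, each gene centred on its own mean over the 10 libraries, the level in log2 units was 0.177 and 0.121 in DEP, -0.108 and -0.155 in DProP, -0.178 and -0.392 in DPP and -0.157 and 0.0146 in Mix, against 0.351 and 0.328 in vehicle. Every treated library lay below both vehicle libraries, and the DEP libraries lay above the other 6 treated libraries. Replicates differed most in DPP, where DPP 2 was the lowest library of all, and in Mix. Because RNA was taken from whole neurospheres, fewer ciliated cells and less ciliary RNA per cell cannot be told apart.

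**Figure D1:**
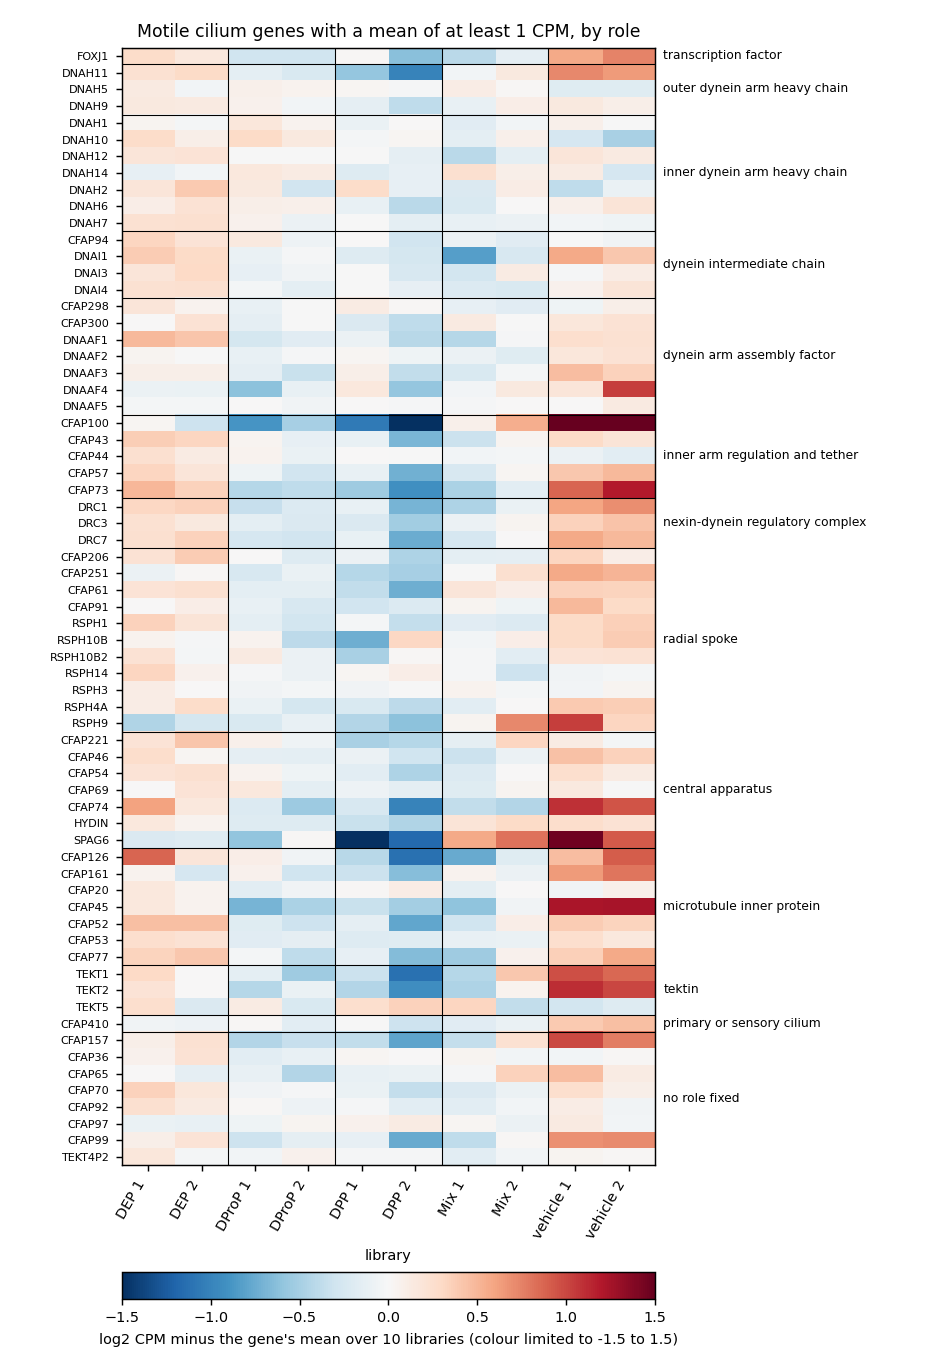
Level of each of the 67 motile cilium genes with a mean of at least 1 CPM (rows, grouped by role) in each of the 10 libraries (columns), as log2 CPM minus the gene's mean over all libraries. Red is above and blue below that mean; most rows are red in both vehicle libraries and blue in DPP 2, while the dynein heavy chain rows other than DNAH11 are mostly pale.

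FOXJ1, the master transcription factor gene of motile cilia (gene 2302, chromosome 17, 76136333 to 76141245 of GRCh38.p14), was lower in 3 of the treatments. It stood at 84.9 and 78.2 CPM in DEP, 56.98 and 57.04 in DProP, 71.1 and 45.4 in DPP and 52.8 and 63.7 in Mix, against 104 and 117 CPM in vehicle. All 8 treated libraries lay below both vehicle libraries, and the 2 DPP libraries differed widely. The log2 fold change was -0.95 ± 0.19 (SE) in DProP (adjusted p = 0.00874), -0.92 ± 0.19 in DPP (adjusted p = 0.00855) and -0.92 ± 0.19 in Mix (adjusted p = 0.0156), from edgeR's quasi-likelihood test. In DEP it was -0.44 ± 0.19 and missed the threshold (adjusted p = 0.142). The calls ended without DProP 2 or vehicle 2 (adjusted p 0.0514 to 0.0578) in DProP, without vehicle 2 (adjusted p 0.0556) in DPP and without Mix 1 or vehicle 2 (adjusted p 0.0883 to 0.101) in Mix.

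**Figure D2:**
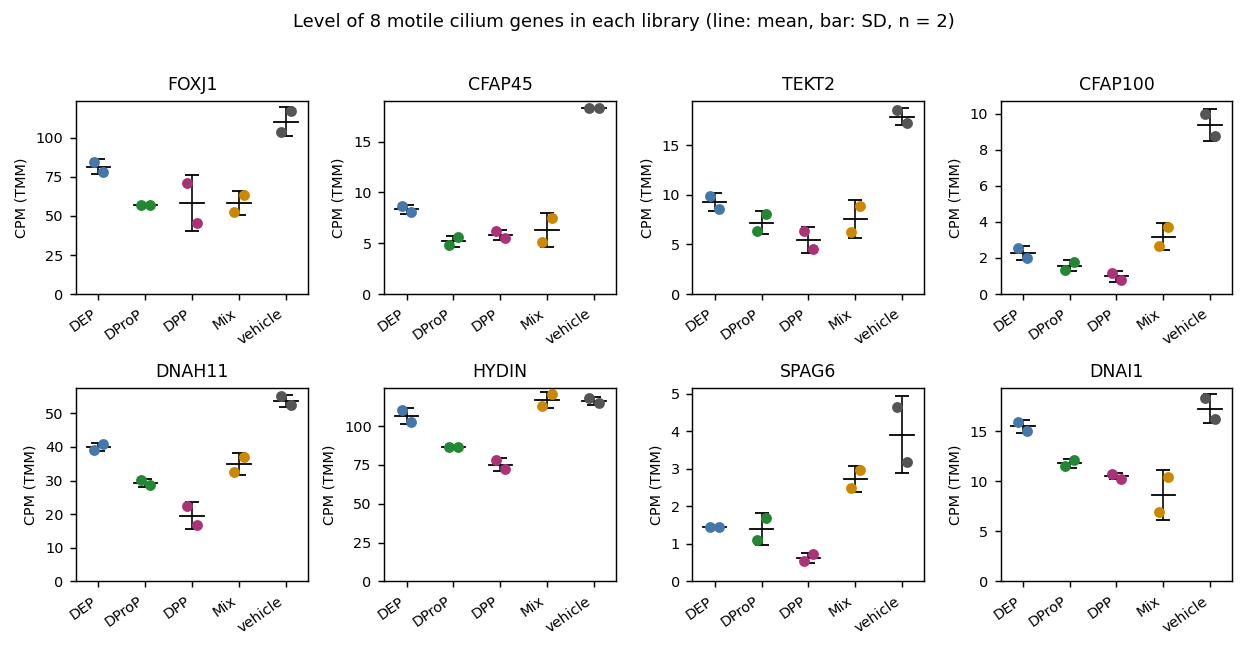
CPM of 8 motile cilium genes in each library of DEP, DProP, DPP, Mix and vehicle (points), with the mean (line) and SD (bar, n = 2). CFAP45, TEKT2 and CFAP100 are far below vehicle in all treatments, HYDIN and SPAG6 are lowest in DPP, and DNAI1 is lowest in Mix.

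Proteins inside the doublet gave some of the clearest falls. CFAP45 encodes a microtubule inner protein (gene 25790, chromosome 1, 159872364 to 159900165). Its level was 8.67 and 8.05 CPM in DEP, 4.79 and 5.59 in DProP, 6.19 and 5.48 in DPP and 5.13 and 7.49 in Mix, against 18.3 and 18.4 CPM in vehicle. Every treated library was below 9 CPM and both vehicle libraries were above 18 CPM, and the 2 vehicle values were nearly equal. Its log2 fold changes (± SE) were -1.13 ± 0.16, -1.82 ± 0.16, -1.65 ± 0.16 and -1.54 ± 0.16 in DEP, DProP, DPP and Mix, with adjusted p of 0.000596, 1.73e-05, 2.06e-05 and 9.11e-05, and each call held in every alternative. Of the 7 tested genes of this class, 2 fell in DEP, 5 in DProP, 6 in DPP and 2 in Mix, and none rose. Among all genes 13.5%, 17.5%, 19.5% and 10.7% fell. With library size alone 1, 2, 5 and 1 of the 7 fell and 1 rose in DEP. CFAP52 (not called in DEP at 0.09 ± 0.18 or Mix at -0.45 ± 0.18) fell in DProP (-0.60 ± 0.18) and DPP (-0.78 ± 0.18). CFAP161, a low-level gene of this class, was at 1.02 and 0.821 CPM in DEP, 1.03 and 0.792 in DProP, 0.781 and 0.621 in DPP and 1.02 and 0.924 in Mix, against 1.55 and 1.75 CPM in vehicle. It fell in DEP (-0.84 ± 0.25), DProP (-0.86 ± 0.25) and DPP (-1.23 ± 0.25), and its value in Mix (-0.76 ± 0.25) missed the threshold (adjusted p = 0.0507). The CFAP161 calls ended without DEP 1, DEP 2, vehicle 1 or vehicle 2 and with library size alone (adjusted p 0.0562 to 0.18) in DEP and without DProP 2 or vehicle 2 (adjusted p 0.0919 to 0.15) in DProP, and that of CFAP52 in DProP without DProP 1, DProP 2, vehicle 1 or vehicle 2 and with library size alone (adjusted p 0.0708 to 0.137). CFAP20, which also serves non-motile cilia, was not called in any treatment, with 95% intervals of -0.13 to 0.23 in DPP and -0.26 to 0.10 in Mix. CFAP126 fell in DPP (-1.43 ± 0.33) and Mix (-1.15 ± 0.32), but 100% of its exon bases overlap SDHC on the other strand in GENCODE v29, and whether counting used strand is not known here. These calls ended without DPP 2 or vehicle 2 (adjusted p 0.0614 to 0.0659) in DPP and without Mix 1, vehicle 1 or vehicle 2 and with library size alone (adjusted p 0.0546 to 0.208) in Mix.

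Tektins are filament proteins of the doublet wall. Of 5 tested 1 fell in DEP, 2 in DProP, 2 in DPP and 1 in Mix, the same counts as with library size alone, and none rose. The all-gene shares of falls on the TMM scale were 13.5%, 17.5%, 19.5% and 10.7%. TEKT2 was at 9.90 and 8.59 CPM in DEP, 6.36 and 8.03 in DProP, 6.33 and 4.50 in DPP and 6.21 and 8.87 in Mix, against 18.5 and 17.2 CPM in vehicle. The treated libraries did not overlap with vehicle, and DPP 2 was again the lowest. Its log2 fold changes were -0.95 ± 0.19, -1.31 ± 0.20, -1.72 ± 0.20 and -1.25 ± 0.20 in DEP, DProP, DPP and Mix (adjusted p = 0.00565, 0.00065, 9.09e-05 and 0.00166). The DEP call of TEKT2 ended without DEP 2 (adjusted p 0.0574). TEKT1 was at 2.79 and 2.28 CPM in DEP, 2.04 and 1.56 in DProP, 1.81 and 1.03 in DPP and 1.68 and 3.01 in Mix, against 4.48 and 4.14 CPM in vehicle. It fell in DProP (-1.26 ± 0.31) and DPP (-1.60 ± 0.31), with values of -0.77 ± 0.30 in DEP and -0.88 ± 0.30 in Mix that missed the threshold. The DProP call of TEKT1 ended without DProP 2 (adjusted p 0.0664). TEKT3, TEKT4 and TEKT5 were called in no treatment. TEKT4 shares sequence with the pseudogenes TEKT4P1 and TEKT4P2, which the name rule also takes in and which were not called either, so reads may be split among them.

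The dynein motors did not move as one. Their heavy chain genes have long transcripts, with 15633 bases for DNAH5, 14473 for DNAH10 and 14167 for DNAH11, which fell. Among the members the fold change was higher at greater transcript length (Spearman's rho 0.36, 0.43, 0.34 and 0.42 in DEP, DProP, DPP and Mix). The part of length in the rises of heavy chain genes was not tested. Of 5 tested outer-arm heavy chain genes 1 fell and 2 rose in DEP, 1 fell and 1 rose in DProP, 2 fell in DPP, and 1 fell and 1 rose in Mix. Over all genes 13.5%, 17.5%, 19.5% and 10.7% fell and 10.1%, 14.7%, 16.7% and 9.71% rose. With library size alone 0, 1, 1 and 1 of the 5 outer-arm genes fell and 2, 2, 1 and 1 rose. Among them DNAH11 fell in all treatments, to 39.2 and 40.7 CPM in DEP, 30.2 and 28.6 in DProP, 22.3 and 16.7 in DPP and 32.5 and 37.1 in Mix, against 55.03 and 52.4 CPM in vehicle. The log2 fold change in DPP was -1.46 ± 0.12 (adjusted p = 7.18e-06), beside -0.87 ± 0.12 in DProP, -0.63 ± 0.11 in Mix and -0.43 ± 0.11 in DEP. The DEP call of DNAH11 ended without DEP 1, DEP 2, vehicle 1 or vehicle 2 and with library size alone (adjusted p 0.0551 to 0.121). DNAH5, the gene of the other main outer-arm heavy chain, went the opposite way. It was at 38.5 and 34.2 CPM in DEP, 36.8 and 36.3 in DProP, 35.9 and 34.6 in DPP and 37.7 and 35.5 in Mix, against 30.8 and 30.9 CPM in vehicle, with all treated libraries above vehicle. It rose in DEP (0.24 ± 0.08), DProP (0.24 ± 0.08) and Mix (0.25 ± 0.08), and its value in DPP was 0.19 ± 0.08 (adjusted p = 0.0673). These DNAH5 calls ended without DEP 1, vehicle 1 or vehicle 2 and with the GC and length trend removed (adjusted p 0.115 to 0.29) in DEP, without DProP 1, DProP 2, vehicle 1 or vehicle 2 and with the GC and length trend removed (adjusted p 0.0909 to 0.263) in DProP and without Mix 1, Mix 2, vehicle 1 or vehicle 2 and with the GC and length trend removed (adjusted p 0.0578 to 0.362) in Mix. DNAH9 fell in DPP (-0.37 ± 0.09) and was at 0.03 ± 0.09, -0.10 ± 0.09 and -0.12 ± 0.09 in DEP, DProP and Mix, and its DPP call ended without DPP 2 and with library size alone (adjusted p 0.0833 to 0.0875). DNAH8, at 0.219 to 0.792 CPM in all libraries, rose in DEP (1.42 ± 0.40), a call that ended without DEP 2, vehicle 1 or vehicle 2 (adjusted p 0.0553 to 0.169).

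Inner-arm heavy chain genes, of the motors that shape the ciliary bend, gave few calls, in both directions. Of 7 tested, 2 rose in DEP, 1 rose in DProP, 1 fell in DPP and 1 fell in Mix. Beside these, 10.1% of all genes rose in DEP and 14.7% in DProP, and 19.5% fell in DPP and 10.7% in Mix. So few calls are not read as a result about the inner-arm genes. With library size alone 3, 4, 1 and 2 rose in DEP, DProP, DPP and Mix and none fell. DNAH10 was at 7.94 and 7.003 CPM in DEP, 8.05 and 7.28 in DProP, 6.43 and 6.69 in DPP and 5.95 and 6.93 in Mix, against 5.51 and 4.68 CPM in vehicle. All treated libraries lay above vehicle. Of the DNAH10 exon bases 16.6% overlap genes on the other strand. The rise of DNAH10 was called in DEP (0.55 ± 0.14) and DProP (0.59 ± 0.14). The calls ended without DEP 1 or vehicle 2 (adjusted p 0.0987 to 0.118) in DEP and without vehicle 2 (adjusted p 0.0657) in DProP. DNAH7 was at 158 and 158 CPM in DEP, against 131 and 128 CPM in vehicle. It rose in DEP (0.29 ± 0.07), without overlap, and the call ended without DEP 1 or DEP 2 (adjusted p 0.06 to 0.0606). DNAH6 fell in DPP (-0.39 ± 0.11) and DNAH12 in Mix (-0.43 ± 0.11). The DNAH6 call ended without DPP 2 or vehicle 2 and with library size alone (adjusted p 0.0896 to 0.159) and the DNAH12 call without Mix 1, vehicle 1 or vehicle 2 and with library size alone (adjusted p 0.0577 to 0.156).

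Intermediate chains hold the dynein arms together. Of 5 tested genes 1, 2, 3 and 2 fell in DEP, DProP, DPP and Mix and none rose, beside falls of 13.5%, 17.5%, 19.5% and 10.7% of all genes. With library size alone 1, 0, 2 and 2 of the 5 fell and 2 rose in DEP. DNAI1, an outer-arm chain gene mutated in primary ciliary dyskinesia, was at 15.98 and 15.04 CPM in DEP, 11.5 and 12.1 in DProP, 10.7 and 10.3 in DPP and 6.91 and 10.4 in Mix, against 18.3 and 16.2 CPM in vehicle. Mix 1 was the lowest library, and the DEP libraries lay just below vehicle. Its log2 fold change was -0.999 ± 0.16 in Mix (adjusted p = 0.00131), -0.72 ± 0.15 in DPP and -0.55 ± 0.15 in DProP, and -0.16 ± 0.15 in DEP, where it was not called. The Mix and DPP calls held in every alternative, and the DProP call ended without DProP 1, DProP 2 or vehicle 1 and with library size alone (adjusted p 0.0588 to 0.103). DNAI4, an intermediate chain gene of the inner arms, was at 82.8 and 83.4 CPM in DEP, 69.2 and 63.9 in DProP, 70.6 and 64.9 in DPP and 61.3 and 60.4 in Mix, against 74.1 and 80.5 CPM in vehicle. It fell in Mix (-0.34 ± 0.07), DProP (-0.22 ± 0.07) and DPP (-0.19 ± 0.07), and was 0.10 ± 0.07 in DEP. The Mix call held in every alternative, and the others ended without DProP 2 or vehicle 2 and with library size alone (adjusted p 0.182 to 0.67) in DProP and without DPP 2 or vehicle 2 and with library size alone (adjusted p 0.251 to 0.737) in DPP. DNAI2, the partner of DNAI1 in the outer arm, was nearly absent. The DEP and DPP libraries had no count, against 13 and 15 counts in vehicle, which is at least 5.62-fold lower in DEP and at least 5.43-fold lower in DPP, taking 3 counts per library as the floor. DProP held 11 and 3 counts and Mix 13 and 0, and the gene was not called in either. The DNAI2 calls ended without DEP 1, DEP 2, vehicle 1 or vehicle 2 and with the GC and length trend removed (adjusted p 0.0529 to 0.185) in DEP and without DPP 1, DPP 2, vehicle 1 or vehicle 2 (adjusted p 0.0708 to 0.13) in DPP.

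Dynein arm assembly factors, which fold and load the motors before they enter the cilium, fell in part. Of 7 tested, none was called in DEP, 4 fell in DProP, 3 in DPP and 3 in Mix. With library size alone these counts of falls were 0, 1, 1 and 0. Falls over all genes were 13.5%, 17.5%, 19.5% and 10.7% on the TMM scale. They were 6.47%, 8.73%, 11.3% and 5.24% with library size alone. DNAAF1 was at 15.3 and 14.6 CPM in DEP, 9.04 and 9.70 in DProP, 10.2 and 8.15 in DPP and 8.12 and 10.7 in Mix, against 12.99 and 12.8 CPM in vehicle. The DEP libraries were the highest of all, vehicle included, and the other 6 treated libraries lay below vehicle. It fell in DProP (-0.46 ± 0.14), DPP (-0.49 ± 0.14) and Mix (-0.45 ± 0.14) and was 0.21 ± 0.14 in DEP. DNAAF3 fell in the same treatments (-0.64 ± 0.15, -0.53 ± 0.15 and -0.54 ± 0.15 in DProP, DPP and Mix). Calls of DNAAF1 ended without DProP 1, DProP 2, vehicle 1 or vehicle 2 and with library size alone (adjusted p 0.0704 to 0.143) in DProP, without DPP 2, vehicle 1 or vehicle 2 and with library size alone (adjusted p 0.0625 to 0.175) in DPP and without Mix 1, vehicle 1 or vehicle 2 and with library size alone (adjusted p 0.118 to 0.309) in Mix. Those of DNAAF3 ended without DProP 2 and with the GC and length trend removed (adjusted p 0.0647 to 0.0665) in DProP, without DPP 2 or vehicle 1, with library size alone and with the GC and length trend removed (adjusted p 0.0744 to 0.173) in DPP and without Mix 1, Mix 2, vehicle 1 or vehicle 2, with library size alone and with the GC and length trend removed (adjusted p 0.0532 to 0.195) in Mix, and 27.2% of its exon bases overlap a gene on the other strand and 14.5% a gene on the same strand. CFAP300 fell in DPP (-0.49 ± 0.10), a call that held in every alternative, with -0.08 ± 0.10, -0.26 ± 0.10 and -0.13 ± 0.10 in DEP, DProP and Mix. DNAAF5 and CFAP298, the most abundant of this class per length, were called in no treatment, with 95% intervals in DPP of -0.21 to 0.06 and -0.11 to 0.22.

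All 3 tested genes of the nexin-dynein regulatory complex, the elastic link between doublets, fell in DProP, DPP and Mix and none was called in DEP. DRC1, a scaffold of the complex, was at 24.8 and 25.3 CPM in DEP, 15.6 and 17.2 in DProP, 18.5 and 12.3 in DPP and 14.4 and 18.5 in Mix, against 29.99 and 32.2 CPM in vehicle. DEP lay between vehicle and the other treatments, and the groups did not overlap with vehicle. Its log2 fold change was -0.92 ± 0.17 in DProP (adjusted p = 0.00248), -1.01 ± 0.17 in DPP (adjusted p = 0.00111), -0.92 ± 0.17 in Mix (adjusted p = 0.00444) and -0.31 ± 0.17 in DEP (adjusted p = 0.2). DRC7 and DRC3 stood at -0.92 ± 0.17 and -0.75 ± 0.11 in DPP and at -0.80 ± 0.17 and -0.56 ± 0.10 in DProP. In Mix they stood at -0.65 ± 0.17 and -0.41 ± 0.10. The Mix calls ended without Mix 1, vehicle 1 or vehicle 2 (adjusted p 0.067 to 0.144) for DRC7 and without Mix 1 or vehicle 2 and with library size alone (adjusted p 0.0768 to 0.133) for DRC3, while the DProP and DPP calls of all 3 genes and the Mix call of DRC1 held in every alternative.

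CFAP100, a subunit of the modifier of inner arms (gene 348807, chromosome 3, 126394909 to 126436556), had the most negative called fold change of all members with counts in every library. Of the 5 genes of inner-arm regulation and tethering 2, 3, 4 and 3 fell in DEP, DProP, DPP and Mix, and 1 rose in DEP. The shares of all genes that fell were 13.5%, 17.5%, 19.5% and 10.7%. With library size alone 1, 2, 3 and 2 of the 5 fell and 1 rose in each. CFAP100 was at 2.57 and 2.02 CPM in DEP, 1.35 and 1.78 in DProP, 1.19 and 0.772 in DPP and 2.65 and 3.70 in Mix, against 9.99 and 8.75 CPM in vehicle. All treated libraries were below 4 CPM and both vehicle libraries above 8 CPM, and the order of the group means was DPP, DProP, DEP, Mix and vehicle from low to high. Its log2 fold changes were -2.03 ± 0.23, -2.58 ± 0.24, -3.25 ± 0.25 and -1.57 ± 0.23 in DEP, DProP, DPP and Mix (adjusted p = 0.00017, 2.27e-05, 4.79e-06 and 0.000839), and each held in every alternative. Of the CFAP100 exon bases 13.0% overlap a gene on the other strand. CFAP73, the partner gene of CFAP100, fell too, with -0.62 ± 0.20, -1.46 ± 0.21, -1.78 ± 0.21 and -1.37 ± 0.21 in the same order. The DEP call of CFAP73 ended without DEP 1, DEP 2 or vehicle 2, with library size alone and with the GC and length trend removed (adjusted p 0.105 to 0.228), and 32.8% of its exon bases overlap genes on the other strand. CFAP57, an inner-arm adaptor gene, fell in DProP (-0.61 ± 0.18), DPP (-0.83 ± 0.18) and Mix (-0.55 ± 0.18). The DPP call of CFAP57 held in every alternative, and the others ended without DProP 2, vehicle 1 or vehicle 2 and with library size alone (adjusted p 0.0537 to 0.126) in DProP and without Mix 1, Mix 2, vehicle 1 or vehicle 2 and with library size alone (adjusted p 0.062 to 0.275) in Mix. CFAP43 and CFAP44 encode the 2 partners of the tether that anchors inner-arm motor heads. Of the CFAP44 exon bases 25.0% overlap a gene on the same strand and 5.2% genes on the other strand. CFAP44 rose in DEP (0.31 ± 0.07), a call that ended without DEP 1 (adjusted p 0.0681). CFAP43 fell in DPP (-0.60 ± 0.17), a call that ended without DPP 2, vehicle 1 or vehicle 2 and with library size alone (adjusted p 0.0739 to 0.116).

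**Figure D3:**
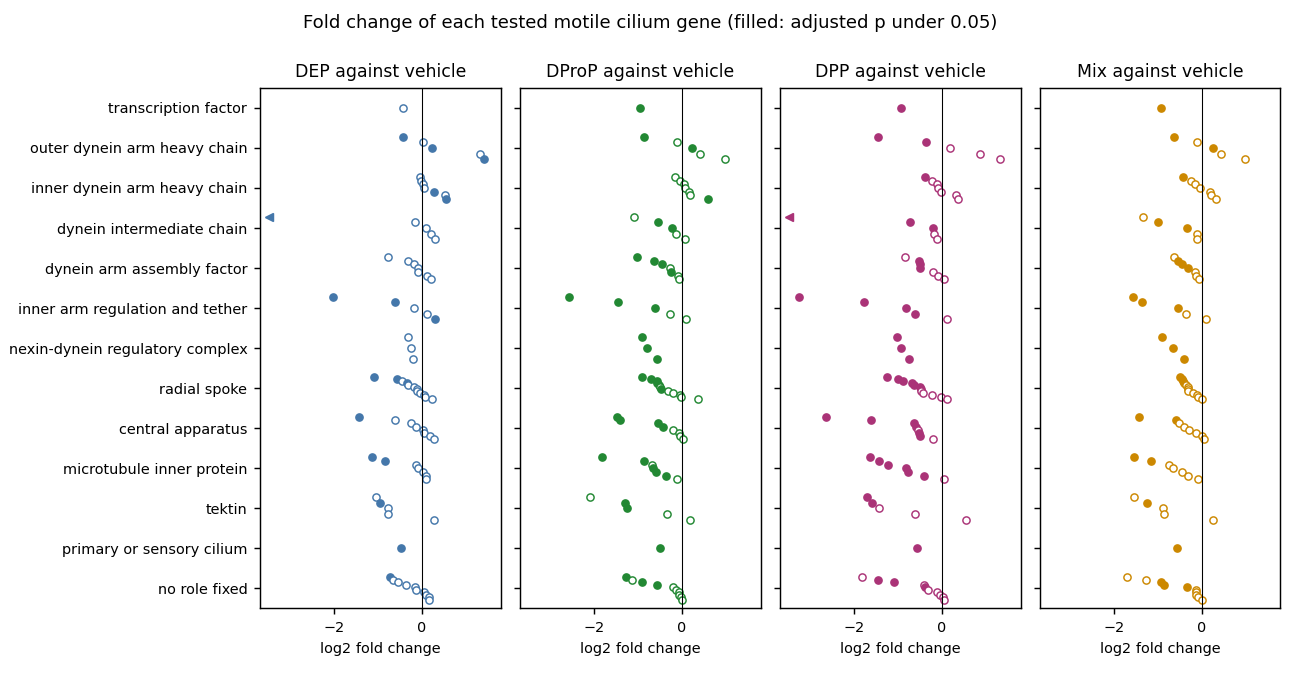
Log2 fold change against vehicle of each of the 76 tested motile cilium genes (points), by role (rows) and treatment (panels); filled points passed an adjusted p of 0.05, and triangles mark DNAI2 in DEP and DPP, beyond the axis, where no treated library had a count. Filled points lie left of 0 in most roles, and those right of 0 belong to dynein heavy chains and, in DEP, to CFAP44.

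Radial spokes carry signals from the central apparatus to the dynein arms. Of 12 tested spoke genes 3 fell in DEP, 6 in DProP, 7 in DPP and 4 in Mix, and none rose. All tested genes fell in 13.5%, 17.5%, 19.5% and 10.7% of cases. With library size alone 2, 5, 6 and 2 of the 12 fell and 1 rose in DEP. CFAP251, of the base of a spoke, was at 12.9 and 13.9 CPM in DEP, 11.6 and 12.8 in DProP, 10.2 and 9.69 in DPP and 13.6 and 16.2 in Mix, against 20.3 and 19.5 CPM in vehicle. Both vehicle libraries lay above all treated libraries. It fell in DEP (-0.57 ± 0.11), DProP (-0.71 ± 0.11), DPP (-1.002 ± 0.11, adjusted p = 3.58e-05) and Mix (-0.42 ± 0.11). The Mix call of CFAP251 ended without Mix 1, vehicle 1 or vehicle 2 and with library size alone (adjusted p 0.0509 to 0.151), and the others held in every alternative. RSPH4A, a spoke-head gene mutated in primary ciliary dyskinesia, was at 30.7 and 34.4 CPM in DEP, 26.6 and 23.8 in DProP, 24.2 and 21.8 in DPP and 25.5 and 28.6 in Mix, against 37.4 and 36.96 CPM in vehicle. It fell in DProP (-0.56 ± 0.09), DPP (-0.69 ± 0.09) and Mix (-0.46 ± 0.09), and was -0.19 ± 0.09 in DEP. The Mix call of RSPH4A ended without Mix 1 (adjusted p 0.0656). RSPH1, also of the spoke head, fell in DProP, DPP and Mix, at -0.53 ± 0.11, -0.50 ± 0.11 and -0.50 ± 0.11. The Mix call of RSPH1 ended without Mix 1 (adjusted p 0.0515). RSPH9, another spoke-head gene, was at 2.29 and 2.62 CPM in DEP, 2.67 and 2.90 in DProP, 2.30 and 2.04 in DPP and 3.23 and 5.18 in Mix, against 6.48 and 3.93 CPM in vehicle. It fell in DEP (-1.09 ± 0.26), DProP (-0.90 ± 0.26) and DPP (-1.26 ± 0.26), and Mix overlapped with vehicle (-0.31 ± 0.25). The RSPH9 calls ended without DEP 1, DEP 2 or vehicle 1 (adjusted p 0.057 to 0.111) in DEP and without DProP 1, DProP 2 or vehicle 1 and with the GC and length trend removed (adjusted p 0.0506 to 0.201) in DProP, and 23.0% of its exon bases overlap a gene on the other strand. CFAP61 fell in DProP (-0.48 ± 0.12) and DPP (-0.88 ± 0.12), the DProP call ending with library size alone (adjusted p 0.0635). CFAP91, of the spoke base, fell in DEP (-0.33 ± 0.09), DProP (-0.57 ± 0.09), DPP (-0.64 ± 0.09) and Mix (-0.40 ± 0.09), with calls that ended without DEP 1, DEP 2 or vehicle 1 and with library size alone (adjusted p 0.0598 to 0.153) in DEP and without Mix 2 or vehicle 1 and with library size alone (adjusted p 0.052 to 0.0783) in Mix, and 32.8% of its exon bases overlap a gene on the same strand. RSPH10B and RSPH10B2 are near-identical copies, and neither was called.

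The central apparatus, the control unit at the core of the axoneme, gave most of its calls in DProP and DPP. Of 8 tested genes 1 fell in DEP, 4 in DProP, 6 in DPP and 2 in Mix, and none rose. With library size alone 1, 4, 5 and 2 fell. On the TMM scale 13.5%, 17.5%, 19.5% and 10.7% of all genes fell, so the DEP count lay near the all-gene share. SPAG6 (gene 9576, chromosome 10, 22345496 to 22417610), which encodes an armadillo protein of the central pair, was at 1.44 and 1.46 CPM in DEP, 1.10 and 1.69 in DProP, 0.530 and 0.727 in DPP and 2.48 and 2.96 in Mix, against 4.63 and 3.19 CPM in vehicle. It was lowest in DPP and highest in vehicle, with Mix just below vehicle. It fell in DEP (-1.43 ± 0.26), DProP (-1.48 ± 0.26) and DPP (-2.64 ± 0.28, adjusted p = 3.32e-05) and was -0.52 ± 0.25 in Mix (adjusted p = 0.16). HYDIN, a very large central pair protein gene (gene 54768, chromosome 16, 70802084 to 71230722), was at 110.1 and 103 CPM in DEP, 86.6 and 86.5 in DProP, 78.3 and 72.1 in DPP and 113 and 121 in Mix, against 118 and 115 CPM in vehicle. DProP and DPP lay below vehicle, DEP just below it, and Mix overlapped with it. It fell in DProP (-0.43 ± 0.06, adjusted p = 0.000531) and DPP (-0.63 ± 0.06, adjusted p = 2.78e-05) and was -0.13 ± 0.06 in DEP and 0.01 ± 0.06 in Mix. HYDIN2, a near-identical copy in the same table, fell in DProP (-0.43 ± 0.09) and DPP (-0.45 ± 0.09) too, so reads may be shared between them. CFAP74 fell in DProP (-1.40 ± 0.25), DPP (-1.61 ± 0.25) and Mix (-1.44 ± 0.25), as did CFAP46 (-0.54 ± 0.10, -0.58 ± 0.10 and -0.59 ± 0.10). CFAP54 and CFAP221 fell in DPP (-0.49 ± 0.10 and -0.51 ± 0.18) and were not called in the other treatments; the CFAP221 call ended without DPP 1, DPP 2, vehicle 1 or vehicle 2 and with library size alone (adjusted p 0.0764 to 0.175).

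Among genes with no role assigned here, CFAP157, a basal body gene in mouse, fell in all treatments, at -0.73 ± 0.19, -1.28 ± 0.19, -1.45 ± 0.20 and -0.92 ± 0.19 in DEP, DProP, DPP and Mix. The CFAP157 calls ended without DEP 1, DEP 2 or vehicle 1 and with the GC and length trend removed (adjusted p 0.0606 to 0.124) in DEP and without Mix 1 (adjusted p 0.0653) in Mix, and 37.1% of its exon bases overlap a gene on the other strand. CFAP99 fell in DProP (-0.92 ± 0.19), DPP (-1.10 ± 0.19) and Mix (-0.87 ± 0.19), the Mix call ending without Mix 1 (adjusted p 0.09). CFAP70 fell in DPP (-0.40 ± 0.10) and Mix (-0.33 ± 0.10). These calls ended without DPP 2 or vehicle 1 and with library size alone (adjusted p 0.0644 to 0.0965) in DPP and without Mix 1, Mix 2 or vehicle 1 and with library size alone (adjusted p 0.0549 to 0.216) in Mix. CFAP97, highest per length by the mean over all libraries, was at 138 and 137 CPM in DEP, 141 and 152 in DProP, 155 and 161 in DPP and 151 and 139 in Mix, against 163 and 144 CPM in vehicle, and was called in no treatment. CFAP410, which acts in primary and sensory cilia, fell in all 4 treatments (-0.49 ± 0.11, -0.49 ± 0.11, -0.57 ± 0.11 and -0.56 ± 0.11). All 4 calls ended in some alternative: without DEP 1 or DEP 2 and with the GC and length trend removed (adjusted p 0.0585 to 0.209) in DEP, without DProP 2 and with the GC and length trend removed (adjusted p 0.0597 to 0.251) in DProP, with the GC and length trend removed (adjusted p 0.073) in DPP and without Mix 1 and with the GC and length trend removed (adjusted p 0.0547 to 0.0696) in Mix. Of its exon bases 46.4% overlap genes on the other strand and 13.95% genes on the same strand.

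The treatments were compared with each other at the same dose in 6 pairs. DPP against DEP gave 18 lower members and none higher, where 1.58% of all tested genes were lower and 1.36% higher, and the median of the 76 genes was -0.39 beside 0.00 over all genes. DNAH11 was lower in DPP than in DEP, at -1.04 ± 0.12 (95% interval -1.29 to -0.78, adjusted p = 0.0011) as was HYDIN, at -0.50 ± 0.06 (interval -0.64 to -0.36, adjusted p = 0.00187). These 2 calls held in every alternative. Each of the other 16 ended without DEP 2 (adjusted p 0.0837 to 0.412) or without DPP 2 (0.0614 to 0.364), and all but that of RSPH4A without DEP 1 (0.0555 to 0.289). Those of SPAG6 and CFAP221 also ended without DPP 1 (0.156 and 0.112). CFAP61 (-0.76 ± 0.12), CFAP73 (-1.16 ± 0.21), RSPH4A (-0.50 ± 0.09), DRC3 (-0.55 ± 0.10), CFAP54 (-0.53 ± 0.10), CFAP70 (-0.48 ± 0.10), CFAP100 (-1.22 ± 0.25) and SPAG6 (-1.20 ± 0.28) were also lower in DPP. FOXJ1 was at -0.48 ± 0.19 (interval -0.94 to -0.03) and not called (adjusted p = 0.276). The 18 calls dropped to 3 without DEP 1, 2 without DEP 2, 2 without DPP 2 and numbered 29 without DPP 1 and 35 when p values were adjusted over all 10 comparisons together, where 5.96% of all genes were called.

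DProP against DEP, whose names differ in the alkyl chain (propyl for ethyl), gave no called member in edgeR, where 0.390% of all tested genes were higher and 0.134% lower. At an unadjusted p under 0.05 there were 35 members and 13.3% of all genes. DESeq2 called 11 members and 4.32% of all genes, limma-voom none and 0.498%, and adjustment over all 10 comparisons 14 and 3.91%. The median of the 76 genes was -0.26. HYDIN stood at -0.30 ± 0.06 (interval -0.44 to -0.16, adjusted p = 0.066) and DNAAF1 at -0.67 ± 0.14 (interval -0.98 to -0.36, adjusted p = 0.0605), and both DProP libraries lay below both DEP libraries for each. FOXJ1 stood at -0.52 ± 0.19 (interval -0.97 to -0.06), and SPAG6 overlapped at -0.04 ± 0.27 (interval -0.62 to 0.53). DPP against DProP also gave no called member in edgeR, where 0.144% of all genes were higher and 0.118% lower. Here 14 members and 12.1% of all genes had an unadjusted p under 0.05. DESeq2 called 2 members and 2.75% of all genes, limma-voom none and 0.241%, and adjustment over all 10 comparisons 2 and 3.33%. DNAH11 stood at -0.59 ± 0.12 (interval -0.85 to -0.33, adjusted p = 0.0694), SPAG6 at -1.16 ± 0.28 (interval -1.78 to -0.54) and FOXJ1 at 0.03 ± 0.19 (interval -0.42 to 0.48). These intervals do not show that the compounds act alike on these genes.

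**Figure D4:**
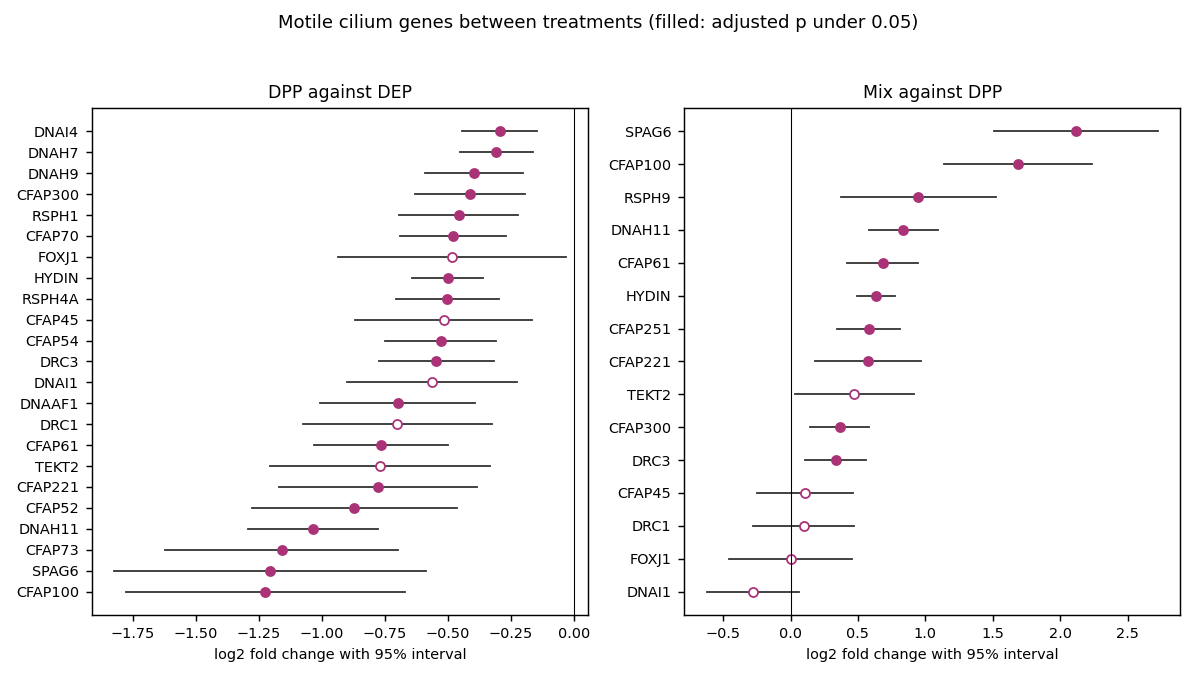
Log2 fold change (points) with its 95% interval (lines) for motile cilium genes in DPP against DEP (left) and Mix against DPP (right); filled points passed an adjusted p of 0.05. All called members lie left of 0 in the left panel and right of 0 in the right panel, led by CFAP100 and SPAG6, whereas FOXJ1, CFAP45, TEKT2, DRC1 and DNAI1 were not called in either.

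Mix was nearer to vehicle than DPP for part of the genes. Mix against DPP gave 10 higher members and none lower, where 10.4% of all tested genes were higher and 6.82% lower, so the count of 10 of 76 lay near that of all genes. SPAG6 was higher in Mix by 2.11 ± 0.28 (adjusted p = 0.000478), CFAP100 by 1.69 ± 0.25 (adjusted p = 0.000985), DNAH11 by 0.84 ± 0.12 (adjusted p = 0.00078) and HYDIN by 0.64 ± 0.06 (adjusted p = 9.08e-05). With CFAP61 (0.68 ± 0.12) and CFAP251 (0.58 ± 0.11) these calls held in every alternative. The other 4 were CFAP300, RSPH9, DRC3 and CFAP221, all of which ended without DPP 2 (0.184, 0.155, 0.326 and 0.147, adjusted p), so that the count became 6. Against DProP 3 members were higher in Mix and none lower, where 4.36% of all genes were higher and 2.53% lower: HYDIN (0.43 ± 0.06, adjusted p = 0.00287), CFAP100 (1.01 ± 0.24) and SPAG6 (0.95 ± 0.26). The HYDIN call held in every alternative, while those of CFAP100 and SPAG6 ended without DProP 1 (0.16 and 0.275), DProP 2 (0.0601 and 0.0506) or Mix 2 (0.183 and 0.213, all adjusted p). Against DEP 7 members were lower in Mix and none higher, where 1.02% of all genes were lower and 2.85% higher. They were DNAI4 (-0.45 ± 0.07), DNAI1 (-0.84 ± 0.16), DNAH7 (-0.33 ± 0.07), DNAAF1 (-0.67 ± 0.14), CFAP70 (-0.41 ± 0.10), DNAH12 (-0.47 ± 0.11) and RSPH1 (-0.46 ± 0.11). Each of these 7 calls ended without DEP 1 (adjusted p 0.0885 to 0.357), DEP 2 (0.0727 to 0.175) or Mix 1 (0.0532 to 0.256), and the count became 0 without DEP 1, 0 without DEP 2 and 1 without Mix 1.

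Axonemal genes with other names were counted alongside. Of 70 listed, 64 were tested, and 10 fell in DEP, 28 in DProP, 33 in DPP and 20 in Mix, while 2, 0, 2 and 0 rose. The falls were 15.6%, 43.75%, 51.6% and 31.25% of the 64, beside 13.5%, 17.5%, 19.5% and 10.7% of all genes. The medians of the 64 were -0.02, -0.35, -0.42 and -0.28. With library size alone the falls were 3, 16, 22 and 13 and the rises 11, 5, 2 and 2. CCDC40, which sets the axonemal repeat length together with CCDC39, was at 84.6 and 78.5 CPM in DEP, 70.3 and 65.4 in DProP, 60.4 and 55.3 in DPP and 60.3 and 74.9 in Mix, against 109 and 103 CPM in vehicle. Its fold changes were -0.38 ± 0.09, -0.65 ± 0.09, -0.88 ± 0.09 and -0.65 ± 0.09 in DEP, DProP, DPP and Mix, the DEP call ending without DEP 2 or vehicle 1, with library size alone and with the GC and length trend removed (adjusted p 0.0654 to 0.108). AK7, an adenylate kinase gene of motile cilia, fell at -0.45 ± 0.11, -0.83 ± 0.11, -1.06 ± 0.11 and -0.56 ± 0.11, and its calls ended without DEP 1, DEP 2 or vehicle 1 and with library size alone (adjusted p 0.0662 to 0.106) in DEP and without Mix 1 (adjusted p 0.0564) in Mix. DLEC1 fell at -0.71 ± 0.13, -0.78 ± 0.13, -1.12 ± 0.13 and -0.62 ± 0.13, the Mix call ending without Mix 1 (adjusted p 0.0565).

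Markers of multiciliated cells that are not axonemal genes of the list fell in 6 of 23 tested cases in DEP, 10 in DProP, 13 in DPP and 9 in Mix, and 1, 0, 0 and 0 rose. The falls were 26.1%, 43.5%, 56.5% and 39.1% of the 23, beside 13.5%, 17.5%, 19.5% and 10.7% of all genes. Scaled by library size alone, 5, 7, 11 and 6 of the markers fell and 1, 0, 0 and 2 rose. Their summed level was 656 and 639.6 CPM in DEP, 625 and 601 in DProP, 598 and 542 in DPP and 606 and 624 in Mix, against 829 and 868 CPM in vehicle. The largest part of that sum came from 1 gene, PLTP. It was at 270.5 and 259.5 CPM in DEP, 303.2 and 295.8 in DProP, 290.5 and 283.3 in DPP and 270.0 and 273.7 in Mix, against 351.5 and 387.7 CPM in vehicle. TPPP3, a tubulin-binding protein gene, was at 109 and 101 CPM in DEP, 75.1 and 75.2 in DProP, 89.1 and 60.5 in DPP and 68.9 and 78.03 in Mix, against 153 and 163 CPM in vehicle. It fell at -0.59 ± 0.15, -1.07 ± 0.15, -1.08 ± 0.15 and -1.10 ± 0.15 in DEP, DProP, DPP and Mix, the DEP call ending without DEP 1, DEP 2, vehicle 1 or vehicle 2 and with library size alone (adjusted p 0.0592 to 0.116). FHAD1 fell at -1.24 ± 0.16, -1.44 ± 0.16, -2.14 ± 0.17 and -1.05 ± 0.16, and CAPS, a calcium-binding protein gene, at -0.63 ± 0.12, -0.80 ± 0.12, -1.02 ± 0.12 and -1.22 ± 0.12. DTHD1 was at 61.8 and 63.04 CPM in DEP, 59.1 and 53.8 in DProP, 44.1 and 44.9 in DPP and 90.96 and 80.01 in Mix, against 81.7 and 82.1 CPM in vehicle. Mix overlapped with vehicle there, and the single phthalates lay below both.

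Regulators upstream of the axoneme gave calls in both directions. Of 21 tested regulators of multiciliation 2 fell and 5 rose in DEP, 3 fell and 6 rose in DProP, 4 fell and 5 rose in DPP, and 2 fell and 2 rose in Mix. The falls were 9.52%, 14.3%, 19.0% and 9.52% of the 21, near or below the all-gene shares of 13.5%, 17.5%, 19.5% and 10.7%. With library size alone 0, 0, 0 and 1 of the regulators fell and 6, 8, 6 and 9 rose, at a scaling where rises outnumbered falls over all genes too. RFX3, a factor that binds X-boxes, was at 657 and 626 CPM in DEP, 659 and 634 in DProP, 640.4 and 682 in DPP and 624 and 613 in Mix, against 803 and 631 CPM in vehicle, and was not called in any treatment (-0.12 ± 0.09 in DPP). RFX2, a close relative, was at 55.2 and 50.5 CPM in DEP, 47.1 and 42.7 in DProP, 49.5 and 42.7 in DPP and 34.5 and 39.99 in Mix, against 50.3 and 55.1 CPM in vehicle and fell in Mix (-0.50 ± 0.10), a call that ended without Mix 1 (adjusted p 0.0581). RFX1 was at -0.35 ± 0.10, -0.38 ± 0.10, -0.37 ± 0.10 and -0.38 ± 0.10 in DEP, DProP, DPP and Mix, all past the threshold, but every call ended with library size alone, with the GC and length trend removed and without at least 1 library. In DPP it ended without DPP 2 or vehicle 2, with library size alone and with the GC and length trend removed (adjusted p 0.0862 to 0.72). GMNC, which acts before MCIDAS, was at or below 1.17 CPM in all libraries and not called. ULK4, a pseudokinase gene linked to ciliogenesis in mouse, rose in all 4 treatments, at 0.62 ± 0.08, 0.49 ± 0.08, 0.49 ± 0.08 and 0.27 ± 0.08, the Mix call ending without Mix 2 or vehicle 1 and with the GC and length trend removed (adjusted p 0.0871 to 0.17). TP73, a factor that acts on FOXJ1 in mouse, was called higher in DEP, DProP and DPP but lay near 0 throughout, at 0.307 and 0.212 CPM in DEP, 0.624 and 0.396 in DProP, 0.474 and 0.575 in DPP and 0.177 and 0.143 in Mix, against 0.0783 and 0 CPM in vehicle, so no fold is given.

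Genes of primary cilia gave mixed calls. Of 52 genes of intraflagellar transport and the BBSome 4 fell and 6 rose in DEP, 8 fell and 4 rose in DProP, 12 fell and 5 rose in DPP and 5 fell and 3 rose in Mix, with medians of 0.03, -0.03, -0.06 and 0.02. Of 42 transition zone and basal body genes 2 fell and 5 rose in DEP, 6 fell and 12 rose in DProP, 9 fell and 10 rose in DPP, and 3 fell and 4 rose in Mix. On the TMM scale 7.69%, 15.4%, 23.1% and 9.62% of the first list and 4.76%, 14.3%, 21.4% and 7.14% of the second fell. Of all genes 13.5%, 17.5%, 19.5% and 10.7% fell there. With library size alone rises outnumbered falls in both lists in every treatment, as they did over all genes. At that scaling 24.6%, 30.1%, 29.9% and 23.7% of all genes rose and 6.47%, 8.73%, 11.3% and 5.24% fell in DEP, DProP, DPP and Mix. IFT122 fell in DPP (-0.48 ± 0.07) and TTC8, a BBSome subunit gene, rose in all treatments (0.41 ± 0.07, 0.41 ± 0.07, 0.39 ± 0.07 and 0.42 ± 0.07). Of 16 genes of the hedgehog pathway, which signals through the primary cilium, 5, 6, 7 and 3 fell and 1 rose in each treatment; with library size alone 1, 0, 3 and 1 fell and 1, 2, 2 and 4 rose. The rising gene was CDON, of a hedgehog co-receptor, in the single phthalates (0.55 ± 0.11, 0.44 ± 0.11 and 0.38 ± 0.11) and HHIP, a hedgehog inhibitor and target, in Mix (1.01 ± 0.15). The CDON calls ended without DEP 2 (adjusted p 0.0533) in DEP, without DProP 1 (adjusted p 0.0721) in DProP and without DPP 1, vehicle 1 or vehicle 2 (adjusted p 0.0668 to 0.121) in DPP. In the single phthalates HHIP fell instead (-0.55 ± 0.15, -0.45 ± 0.15 and -0.59 ± 0.15 in DEP, DProP and DPP), with calls that ended without DEP 1 or vehicle 1 and with library size alone (adjusted p 0.0625 to 0.167) in DEP, without DProP 1, DProP 2 or vehicle 1 and with library size alone (adjusted p 0.07 to 0.279) in DProP and without DPP 2 or vehicle 1 (adjusted p 0.0565 to 0.101) in DPP.

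**Figure D5:**
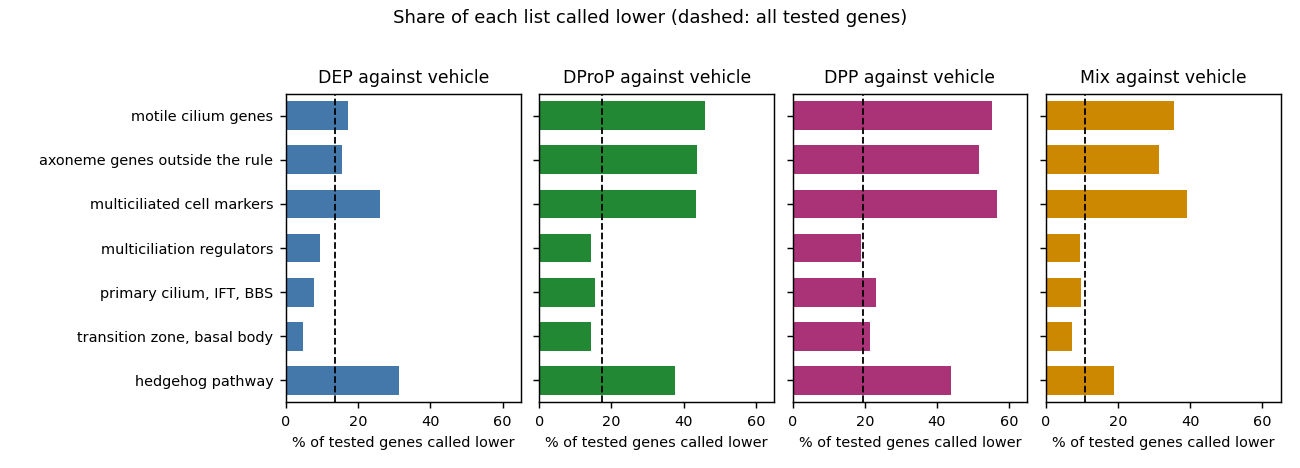
Share of the tested genes of each list called lower against vehicle (bars, percent) in DEP, DProP, DPP and Mix; the dashed line is the share among all 19465 tested genes. Motile cilium genes, other axonemal genes and multiciliated cell markers exceed the line clearly in DProP, DPP and Mix, whereas intraflagellar transport, transition zone and regulator genes lie near or below it. Hedgehog pathway genes exceed it in every treatment, at 31.25%, 37.5%, 43.75% and 18.75% in DEP, DProP, DPP and Mix. The progenitor, neuronal, astrocyte and mesenchymal marker lists, not drawn, also exceed it in every treatment.

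Markers of other cells moved in the same comparisons. The summed level of 10 progenitor markers was 4370.4 and 4391 CPM in DEP, 4057 and 4236 in DProP, 4441 and 4257 in DPP and 4198 and 4398 in Mix, against 6992 and 6948 CPM in vehicle. For 12 neuronal markers it was 1445 and 1591 CPM in DEP, 1290.0 and 1353 in DProP, 1263 and 1152 in DPP and 1762 and 1797 in Mix, against 2219.7 and 2149.6 CPM in vehicle. For 10 astrocyte markers it was 5808 and 5535 CPM in DEP, 5360.4 and 5333 in DProP, 5765 and 5284 in DPP and 5994 and 5552 in Mix, against 9890.3 and 9695 CPM in vehicle. All of these sums were lower in every treated library than in vehicle. The list of 10 mesenchymal and smooth muscle markers summed to 103 and 97.3 CPM in DEP, 89.7 and 85.3 in DProP, 87.5 and 77.6 in DPP and 76.7 and 93.4 in Mix, against 179 and 181 CPM in vehicle. Of 12 choroid plexus markers the defining genes TTR, OTX2 and LMX1A had no count in any library, and the sum, carried by the water channel gene AQP1, was 159 and 154 CPM in DEP, 141 and 127 in DProP, 133 and 112 in DPP and 191 and 161 in Mix, against 225 and 245 CPM in vehicle. Progenitor markers fell in 8, 9, 9 and 6 of 10 cases in DEP, DProP, DPP and Mix, neuronal markers in 6, 9, 9 and 5 of 12, astrocyte markers in 7, 7, 7 and 5 of 10 and mesenchymal markers in 6, 6, 5 and 5 of 8 tested. Rises in these lists were those of NEFL, a neurofilament gene, in DProP (0.35 ± 0.10) and DPP (0.82 ± 0.10), of GAP43, a growth cone gene, in DPP (0.46 ± 0.09) and Mix (0.33 ± 0.09), and of SLC1A2, a glutamate transporter gene of astrocytes, in Mix (0.94 ± 0.22). The calls ended without DProP 1 or vehicle 2 (adjusted p 0.0895 to 0.0963) in DProP for NEFL, without Mix 1, Mix 2 or vehicle 2 (adjusted p 0.0716 to 0.115) in Mix for GAP43 and without vehicle 1 or vehicle 2 (adjusted p 0.0975 to 0.118) for SLC1A2. Of 8 tested choroid plexus markers 1, 1, 2 and 2 fell and 1, 2, 1 and 0 rose. AQP1 fell in all treatments (-0.68 ± 0.12, -0.95 ± 0.12, -1.11 ± 0.13 and -0.44 ± 0.12), the Mix call ending without Mix 2, vehicle 1 or vehicle 2, with library size alone and with the GC and length trend removed (adjusted p 0.0615 to 0.184), and SLC4A5, a bicarbonate transporter gene, rose in DEP (0.45 ± 0.11), DProP (0.44 ± 0.11) and DPP (0.52 ± 0.11), with calls that ended without DEP 1 or vehicle 2 (adjusted p 0.0656 to 0.115) in DEP and without DProP 1 or vehicle 2 (adjusted p 0.0608 to 0.0654) in DProP. The other rise in DProP was that of MSX1, a homeobox gene (0.74 ± 0.22), a call that ended without DProP 1, DProP 2 or vehicle 2 (adjusted p 0.066 to 0.113). Scaled by library size alone, neuronal markers fell in 3, 9, 9 and 5 cases and rose in 1, 2, 3 and 1, progenitor markers fell in 6, 7, 9 and 4 and rose in 0, 0, 0 and 2, and astrocyte markers fell in 5, 5, 6 and 4 and rose in 0, 0, 0 and 1. The part of these shifts in the fall of motile cilium genes was not tested. Base composition moved with the fold changes as well: across 75 members with a length and GC value the change against vehicle was lower at higher GC content, with Spearman's rho of -0.36 in DEP, -0.31 in DProP, -0.24 in DPP and -0.30 in Mix, beside -0.30, -0.32, -0.28 and -0.34 over 14822 protein-coding genes. For transcript length rho among the members was 0.36 in DEP, 0.43 in DProP, 0.34 in DPP and 0.42 in Mix, and it was not computed over all genes. Genes of 1 library are not independent, so no p is given. With the GC and length trend removed 9 members fell and 5 rose in DEP, 30 fell and 3 rose in DProP, 40 fell and 2 rose in DPP, and 28 fell and none rose in Mix. The shares of all genes at that setting are not given here, so these counts are not set against them.

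Promoters of these genes were read from RefSeq (GRCh38.p14) because ciliary genes are known to be bound by RFX factors. The table held 64 of the 81 members, as windows of 250 bases before and 50 bases after the start. The core of the X-box, GTTGCC on either strand, occurred in 50% of the members, against 14.6% of the 27305 genes of the table. The 7-letter form GTTGCCA, which contains it, occurred in 34.4% of the members against 4.98% of genes, and the full X-box, GTTNCC and GGNAAC with 2 bases between them, in 3.12% against 0.593%. The forkhead motif GTAAACA occurred in 6.25% against 4.19%. Among the 30 members in the table that fell in DPP 50% held the core, as did 50% of the 30 tested members that did not. The 4 members with the forkhead motif (CFAP43, CFAP126, DNAH9 and TEKT1) all fell in DPP, an observation with no test. The DPP calls of CFAP43, CFAP126 and DNAH9 ended without DPP 2, and only that of TEKT1 held in every alternative. A match is a description of letters and not a binding site. Below are the 250 bases before the start of 4 genes with a core motif and strong falls, and of DNAH11, which fell in all treatments without one; they were chosen after the values were seen. Capitals mark the core motif in either orientation (GTTGCC or GGCAAC) and, in CFAP45, the full palindrome that contains it. CFAP45 lies at chr1:159900166-159900415 on the minus strand, CFAP100 at chr3:126394659-126394908 (plus), SPAG6 at chr10:22345246-22345495 (plus), DRC1 at chr2:26401670-26401919 (plus) and DNAH11 at chr7:21542789-21543038 (plus).
CFAP45: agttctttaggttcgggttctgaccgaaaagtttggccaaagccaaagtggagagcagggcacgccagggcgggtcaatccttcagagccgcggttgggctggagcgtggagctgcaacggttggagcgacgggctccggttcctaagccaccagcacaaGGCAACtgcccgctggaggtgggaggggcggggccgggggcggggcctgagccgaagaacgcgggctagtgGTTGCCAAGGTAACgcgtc
CFAP100: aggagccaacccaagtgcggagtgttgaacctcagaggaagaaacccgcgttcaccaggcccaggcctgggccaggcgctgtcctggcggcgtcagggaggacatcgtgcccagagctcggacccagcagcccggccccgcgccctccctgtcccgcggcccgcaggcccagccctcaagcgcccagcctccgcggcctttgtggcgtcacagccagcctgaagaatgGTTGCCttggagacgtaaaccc
SPAG6: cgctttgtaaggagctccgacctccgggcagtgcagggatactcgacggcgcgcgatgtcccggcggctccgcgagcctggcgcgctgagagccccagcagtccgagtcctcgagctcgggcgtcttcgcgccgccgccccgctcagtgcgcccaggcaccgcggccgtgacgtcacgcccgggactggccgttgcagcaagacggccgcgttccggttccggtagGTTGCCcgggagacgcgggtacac
DRC1: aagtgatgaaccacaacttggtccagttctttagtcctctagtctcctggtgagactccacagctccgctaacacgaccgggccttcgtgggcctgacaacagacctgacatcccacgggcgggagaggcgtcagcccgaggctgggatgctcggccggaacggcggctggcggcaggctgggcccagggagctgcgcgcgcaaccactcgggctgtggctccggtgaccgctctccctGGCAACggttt
DNAH11: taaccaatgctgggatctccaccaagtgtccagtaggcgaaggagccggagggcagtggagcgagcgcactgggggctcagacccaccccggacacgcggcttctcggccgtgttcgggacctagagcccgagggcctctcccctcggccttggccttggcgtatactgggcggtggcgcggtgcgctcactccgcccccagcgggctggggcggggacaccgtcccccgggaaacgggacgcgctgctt
In CFAP45, CFAP100, SPAG6 and DRC1 a core motif lies within the last 30 bases before the start. CFAP45 has another that begins 90 bases before it.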

How the data were processed

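The 10 neurosphere libraries were made with an exome capture kit (SureSelect RNA Direct), per the labels' protocols. The deposited table holds raw read counts per gene for 46427 genes, 17765 of them without a count. Per the submitters' processing notes, the genome build was GRCh38 and the tools included the aligner HISAT2 2.1.0, the trimmer Trimmomatic 0.38, StringTie 2.1.3b and FastQC, with edgeR 4.0.9 under R 4.3.2. No source used here says which program counted reads, with which strand setting or annotation. Capture limits the counts to targeted exons, and RNA outside them is not measured.

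The counts were tested as deposited with edgeR 4.0.16 in R 4.3.3 (limma 3.58.1). All 10 libraries entered 1 robust quasi-likelihood fit with TMM scaling after edgeR's filter on low counts by group, and p values were adjusted by the Benjamini-Hochberg method over 19465 genes within each of the 10 comparisons (4 against vehicle, 6 between treatments). A gene was called at an adjusted p under 0.05. Errors beside log2 fold changes are standard errors, and intervals are 95%. The fit had 5 residual degrees of freedom and a common biological coefficient of variation of 9.40%. The p values rest on the spread pooled over groups and genes, since an exact test of 2 against 2 libraries for a single gene cannot reach 0.05. The standard errors and intervals come from the same fit and rest on that pooled spread too. The fit was tested on simulated data.

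The members and the gene lists were chosen with earlier results of these data known. Named members are FOXJ1, SPAG6 and HYDIN, up to 24 per comparison with vehicle and 8 per comparison between treatments with the smallest p past the threshold, and the 6 highest per length. Other lists gave up to 4 genes each by the same criterion. Members and list genes outside this rule (CFAP43, CFAP52, CFAP57, CFAP126, CFAP221, DNAH6, DNAH9, TPPP3, PLTP, RFX1, RFX2, RFX3, GMNC, TP73, HYDIN2, NEFL, GAP43, SLC1A2, SLC4A5, MSX1 and AQP1) were chosen after their values were seen. Alternatives were DESeq2 1.42.0, limma-voom, RLE factors, library size alone, no filter, a filter of 1 CPM in 2 libraries, the 2 compared groups only, a replicate block, adjustment over all 10 comparisons, a GC and length trend removed by lowess (span 0.3, GENCODE v29 transcripts), vehicle left out of the fit, each library left out and, added after the data were seen, protein-coding genes only.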

Additional observations from a re-analysis of the deposited data

How the results depend on the processing

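Total counts of called members, rises and falls together, kept within 1.5 times their value with RLE factors, library size alone, no filter and limma-voom in all 10 comparisons. With library size alone rises were 13 against 5 in DEP and 7 against 2 in DProP, falls were 17 against 27 in Mix, and 14 of the 18 DEP calls were shared. DProP against DEP, with no call in the reported fit, gave 5 with a filter of 1 CPM in 2 libraries, 11 with DESeq2, 13 with the 2 compared groups only, 14 when adjusted over all 10 comparisons, 2 with the GC and length trend removed and 5 with protein-coding genes only. For DPP against DEP, with 18, the values were 34 with DESeq2, 35 over all 10 comparisons and 28 with protein-coding genes. For DPP against DProP, with 0, they were 1 with the 1 CPM filter, 2 with DESeq2, 2 over all 10 comparisons and 1 with protein-coding genes. For Mix against DEP, with 7, they were 13 with the 1 CPM filter, 18 with DESeq2, 23 with the 2 groups only, 15 over all 10 comparisons and 12 with protein-coding genes. The larger counts under adjustment over all comparisons follow from its construction, since the many calls against vehicle raise its threshold. In DProP against DEP and in DPP against DProP the share of all genes called rose with DESeq2 as well. For DPP against DEP and Mix against DEP the shares of all genes at most of these settings are not given here. Whether the moves are particular to the members was not tested, nor was the cause of those outside that adjustment.

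Leaving out 1 library gave 6 to 11 calls in DEP, 21 to 29 in DProP, 30 to 41 in DPP and 12 to 24 in Mix against vehicle, 0 to 1 in DProP against DEP, 2 to 29 in DPP against DEP, 0 to 1 in DPP against DProP, 0 to 5 in Mix against DEP, 1 to 3 in Mix against DProP and 6 to 15 in Mix against DPP. Fewer libraries also leave fewer residual degrees of freedom. In such a fit the lone library of a group is assumed to vary like the other groups.

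Replicate numbers did not pair the libraries: in 10 pairs of groups the correlation of same-numbered deviations was -0.0465 to 0.0471. With the replicate block the counts were 18, 34, 40 and 25 for DEP, DProP, DPP and Mix against vehicle, 0 for DProP against DEP, 17 for DPP against DEP, 0 for DPP against DProP, 7 for Mix against DEP, 2 for Mix against DProP and 9 for Mix against DPP. Over the members and list genes named or called, 3369 alternative values kept their side of the threshold, 501 no longer passed, 18 newly passed and none reversed. Low counts limit DNAI2, DNAH8 and the other members under 1 CPM.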
